A study of Mus musculus with 21 samples.

Results

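ABC transporters are membrane pumps that use ATP to move drugs, conjugates, nucleotides or lipids out of cells, and the 7 described here, Abcb1a, Abcb1b, Abcg2, Abcc1, Abcc4, Abcc5 and Abca1, were followed in the translatomes of embryonic mouse endothelium. They were chosen by gene symbol as the efflux pumps of interest at the blood-brain barrier, and they make up 7 of the 53 ABC genes and 7 of the 23827 rows of the deposited tables, each with a single row. The 21 samples came from E14.5 mouse embryos and form 7 groups of 3. Brain transcriptome, brain translatome, kidney transcriptome and kidney translatome samples were Sox2Cre+/-;Gt(ROSA)26Sor-mCherry-Rpl10a+/-, brain EC and kidney EC (endothelial cell) samples were Cdh5CreERT2+/-;Gt(ROSA)26Sor-mCherry-Rpl10a+/-, and the Emx1-lineage samples were Emx1Cre+/-;Gt(ROSA)26Sor-mCherry-Rpl10a+/-. All groups, the transcriptomes included, thus carried 1 copy of the tag allele, which originated from a single ES cell clone and is transcribed from the CAGGS promoter once Cre has acted. Sox2Cre recombines in all derivatives of the epiblast, Cdh5CreERT2 in endothelium after tamoxifen given by oral gavage, and Emx1Cre in the dorsal telencephalon and in cells that once expressed Emx1. A translatome is the RNA pulled down with the mCherry-tagged ribosomes (TRAP), and a transcriptome is the total RNA of the same tissue. Forebrains (with part of the diencephalon) or kidneys were homogenized for each sample, by the paper's account from as few as 1 embryo.

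At the blood-brain barrier, P-glycoprotein (encoded in the mouse by the paralogs Abcb1a and Abcb1b), Abcg2 (breast cancer resistance protein) and several multidrug resistance-associated proteins of the Abcc subfamily return lipophilic drugs and conjugates to the blood. Abca1 belongs to a different branch of the family and hands cholesterol and phospholipids to lipid-poor apolipoproteins. In the kidney, P-glycoprotein and the Abcc pumps are best known from tubule epithelium.

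Levels are given as RPKM (reads scaled to transcript length and to the reads of the library), which allows transcripts of different length to be compared, and differences as log2 fold changes of read counts. The fold changes rest on another scaling of the libraries (TMM factors), so ratios of RPKM can differ from them. Between 21760652 and 79231692 reads were counted on genes per sample. A difference was called at an adjusted p under 0.001 in edgeR's quasi-likelihood test. All 10 endothelial markers examined (Cdh5, Pecam1 and others) were higher in both endothelial groups than in their organ translatome, their median log2 fold change being 4.49 for brain EC and 3.01 for kidney EC, and none was at 0 in either endothelial group. Their summed level was 3408 to 3578 RPKM in brain EC and 2246 to 2680 in kidney EC. Markers of other cells were present as well. The 8 neuron markers summed to 439 to 558 RPKM in brain EC against 2513 to 2550 in the brain translatome, and to 15.3 to 16.9 in kidney EC, where Neurod2 and Neurod6 had no read. The 7 neural progenitor markers summed to 527 to 657 RPKM in brain EC against 1141 to 1287 in the brain translatome. In kidney EC they summed to 140 to 151 RPKM, against 62.7 to 67.2 in the kidney translatome. Against the brain translatome, 1 of the 7 was called higher in brain EC and 6 lower, with a median log2 fold change of -1.63. Against the kidney translatome, 1 was called higher in kidney EC and 3 lower, with a median of -1.89. The 8 kidney epithelium markers summed to 54.8 to 73.5 RPKM in kidney EC against 366 to 394 in the kidney translatome. For the 5 kidney stroma markers the sums were 118 to 175 against 303 to 405. In brain EC these 5 summed to 35.4 to 51.6 RPKM against 33.3 to 39.0 in the brain translatome. Of the 5, 4 were called higher there and 1 lower. The 6 choroid plexus markers summed to 136 to 187 RPKM in brain EC against 526 to 645 in the brain translatome, with 0 called higher and 2 lower. The part of these cells' RNA in the endothelial values was not tested. All brain EC libraries shared 1 sequencing lane and all kidney EC libraries another, so that lane and organ cannot be told apart in this comparison, nor can Cre driver, tamoxifen and cell population when an endothelial group is set against an organ. In pulled-down RNA of whole tissue, fewer cells of a type and less RNA per cell cannot be told apart.

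**Figure D1:**
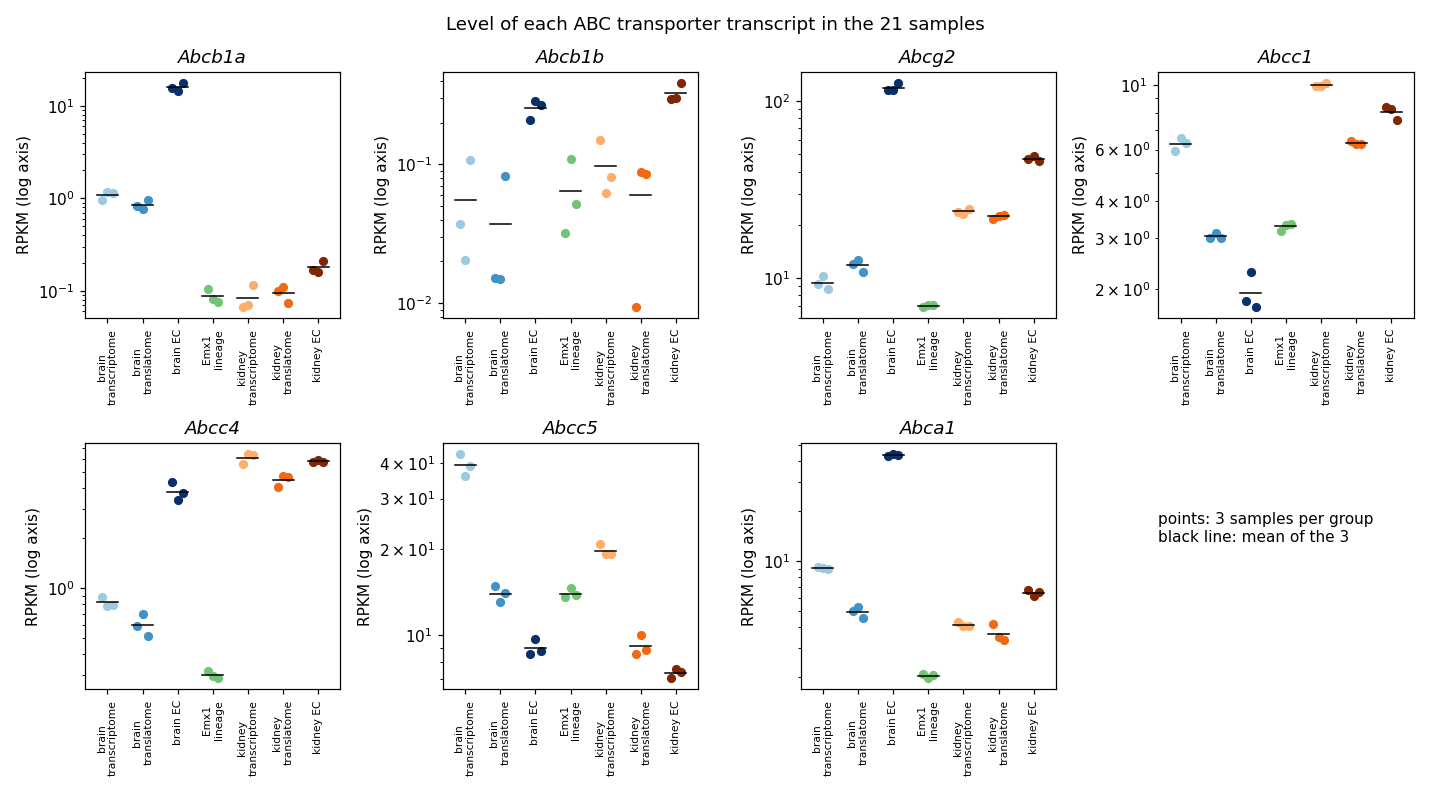
RPKM of the 7 ABC transporter transcripts (log axes, a scale for each gene) in the 7 groups, with a point for each of the 3 samples and a black line for their mean. Abcb1a, Abcg2 and Abca1 stand highest in brain EC, at means of 15.8, 119 and 43.6 RPKM, whereas Abcc1 is lowest there, at 1.95 RPKM.

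Brain EC were first compared with kidney EC, to find which pumps differed in pulled-down RNA between the endothelium of the 2 organs. Abcb1a, Abca1 and Abcg2 were higher in brain EC, by 90.3-fold, 6.96-fold and 2.6-fold, and Abcc1 and Abcc4 were lower, by 4.02-fold and 1.48-fold. Abcc5 (1.29-fold) and Abcb1b (0.794-fold) did not pass the test, although Abcc5 did in 2 other fits given with its values. Of all 19238 transcripts tested, 20.1% were called higher and 16.9% lower in this comparison, so the 3 higher and 2 lower members are to be read against these shares. The median log2 fold change of the members was 0.36, against 0.01 for all transcripts.

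Abcb1a, at chr5:8660077-8748575 on the plus strand (GRCm38, GENCODE), encodes the P-glycoprotein isoform that is typical of brain capillaries. It had 15.6, 14.3 and 17.6 RPKM (4827, 3786 and 5022 reads) in the 3 brain EC samples and 0.168, 0.16 and 0.21 RPKM (37, 26 and 43 reads) in the 3 kidney EC samples. Brain EC thus lay far above every other sample. Kidney EC ranked 4 of the 7 groups, without overlap with its neighbours in the order of levels. The log2 fold change between brain EC and kidney EC was 6.50 (SE 0.13, adjusted p = 5.78e-11). In the brain transcriptome and translatome Abcb1a had means of 1.09 ± 0.118 and 0.852 ± 0.101 RPKM (SD, n = 3), with overlapping ranges. The remaining 3 groups, kidney translatome, Emx1-lineage and kidney transcriptome, had means of 0.0945, 0.0873 and 0.0843 RPKM and overlapped from 1 to the next, on 8 to 41 reads per sample. The Emx1-lineage, which holds the neurons and progenitors of the dorsal telencephalon, was therefore among the lowest groups for Abcb1a.

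Abcb1b, the second P-glycoprotein gene, starts 49572 bases downstream of the end of Abcb1a on the same strand (chr5:8798147-8866315) and was scarcely read in any group. It had 0.208, 0.285 and 0.269 RPKM in brain EC (56, 66 and 67 reads) and 0.296, 0.302 and 0.386 RPKM in kidney EC (57, 43 and 69 reads). Kidney EC samples all lay above brain EC samples, but the log2 fold change of -0.33 (95% confidence interval -0.83 to 0.16, adjusted p = 0.227) was not called. The 5 other groups had means of 0.0374 to 0.0978 RPKM, on 1 to 33 reads per sample, and each overlapped its neighbour in the order of levels. Both endothelial groups were above all of them.

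Abcb1a and Abcb1b are close paralogs, so their transcripts were compared to see how far short reads can separate them. Their coding sequences, of 3828 bases each, were identical at 3367 of 3816 aligned positions (88.2%), with a longest identical run of 338 bases. Of all 36-base windows of the Abcb1b transcript, 22.8% also occur in the Abcb1a transcript, and of all 100-base windows 8.72%. The stretch below, from the GENCODE transcripts ENSMUST00000047753.4 (coding bases 1297 to 1386, exons 12 and 13, between chr5:8702237 and chr5:8702416) and ENSMUST00000009058.9 (coding bases 1306 to 1395, exons 12 and 13, between chr5:8824557 and chr5:8824736), is shown because it leads into that run. Capitals mark the 5 bases that differ, and after the last of them the genes cannot be told apart over the rest of the stretch.
Abcb1a: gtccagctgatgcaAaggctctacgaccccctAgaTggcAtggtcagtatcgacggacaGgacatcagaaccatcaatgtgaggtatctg
Abcb1b: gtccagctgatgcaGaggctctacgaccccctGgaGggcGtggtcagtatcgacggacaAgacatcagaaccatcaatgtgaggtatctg
How the authors' counting assigned reads that fit both genes is not given in the sources used here, and the part of such reads in the Abcb1b values was not tested.

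RefSeq promoter entries (GRCm38.p6) were found for 6 of the 7 members, with 9 start sites in all, and not for Abcc1. The 250 bases before the start of Abcb1a, Abcb1b and Abca1 are printed 5' to 3' because these genes cover the highest contrast between the endothelial groups, its thinly read paralog and the next highest contrast. Capitals mark matches, on either strand, to the GC box (GGGCGG), the CCAAT box (CCAAT), the E box (CACGTG), the TATA box (TATAAA), TCF/LEF sites (NNCAAAG with A or T at both N) or the nuclear receptor motif (AGGTCA); no matches overlapped in the printed windows.
Abcb1a, chr5:8566841-8567090, plus strand: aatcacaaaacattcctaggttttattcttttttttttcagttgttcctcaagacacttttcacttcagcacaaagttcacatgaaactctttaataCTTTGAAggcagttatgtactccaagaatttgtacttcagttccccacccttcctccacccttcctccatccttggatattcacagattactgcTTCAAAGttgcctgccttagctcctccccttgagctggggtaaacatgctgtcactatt
Abcb1b, chr5:8797897-8798146, plus strand: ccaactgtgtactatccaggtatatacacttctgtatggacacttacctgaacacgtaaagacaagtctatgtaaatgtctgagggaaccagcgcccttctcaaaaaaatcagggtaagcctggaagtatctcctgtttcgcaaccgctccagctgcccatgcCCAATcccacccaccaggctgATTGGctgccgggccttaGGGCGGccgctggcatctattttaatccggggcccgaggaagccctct
Abca1, chr4:53159896-53160145, minus strand: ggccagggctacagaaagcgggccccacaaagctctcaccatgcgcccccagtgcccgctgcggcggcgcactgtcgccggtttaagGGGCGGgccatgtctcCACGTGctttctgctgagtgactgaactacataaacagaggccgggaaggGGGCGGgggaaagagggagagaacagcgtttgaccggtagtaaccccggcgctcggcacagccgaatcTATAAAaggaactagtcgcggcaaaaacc
The Abcb1a window had a GC content of 40.4% and 2 TCF/LEF matches, and it held none of the other motifs. The window of Abcb1b, with 52.8% GC, held 2 CCAAT boxes and 1 GC box, and that of Abca1, with 61.6% GC, held 2 GC boxes, an E box and a TATA box. Among the 32851 promoter entries of the same length, 14.8% held a TCF/LEF match, 33.9% a CCAAT box, 32.7% a GC box, 6.02% an E box and 12.4% a TATA box. A match describes letters in a window and does not show binding. The RefSeq start of Abcb1a lies 92986 bases upstream of the GENCODE gene start, and which start these cells used was not tested. In the 3 entries of Abcg2, 2, 0 and 1 nuclear receptor motifs (14.0% of all entries hold one) and 0, 2 and 4 GC boxes were found.

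Abcg2 (chr6:58584523-58695676, plus strand) encodes a transporter that works as a dimer and pumps drugs, urate and sulphated conjugates, and it was the most abundant ABC transcript of brain EC, ranking 1 of 53. Its level was 115, 116 and 126 RPKM in brain EC and 47.1, 48.8 and 45.6 RPKM in kidney EC, without overlap. The log2 fold change between them was 1.38 (SE 0.07, adjusted p = 3.02e-08). In kidney EC Abcg2 ranked 2 of 53, after Abce1, a ribosome recycling factor without a membrane domain. The order of the other groups was kidney transcriptome (23.8 RPKM), kidney translatome (22.3), brain translatome (11.9), brain transcriptome (9.43) and Emx1-lineage (7.01), and no neighbours in it overlapped. Abcg2 was therefore high in both endothelia, unlike Abcb1a.

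Abca1 (chr4:53030787-53159895, minus strand) had 42.8, 44.1 and 43.8 RPKM in brain EC, on 24128 to 27253 reads, against 6.65, 6.17 and 6.51 RPKM in kidney EC. Its log2 fold change was 2.80 (SE 0.07, adjusted p = 2.48e-10). Brain transcriptome (9.08 RPKM) came next, followed by kidney EC and the brain translatome (4.92), and kidney transcriptome (4.13) and kidney translatome (3.66) overlapped. Emx1-lineage samples were lowest, at 2.03 ± 0.0579 RPKM (SD, n = 3). Microglia and macrophages also use Abca1. The 10 markers of these cells summed to 38.1 to 39.9 RPKM in brain EC, 10.2 to 11.0 in kidney EC and 72.2 to 79.2 in the brain translatome, and their part in the Abca1 values was not tested.

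Abcc1 and Abcc4 export glutathione, glucuronide and nucleotide conjugates, and both were lower in brain EC. Abcc1 (chr16:14361558-14475737, plus strand) had 1.82, 2.29 and 1.74 RPKM in brain EC, the lowest of the 7 groups, and 8.4, 8.23 and 7.58 RPKM in kidney EC. Its log2 fold change was -2.01 (SE 0.11, adjusted p = 5.69e-08). The highest Abcc1 levels were those of the kidney transcriptome (9.98 RPKM), and the means of kidney translatome (6.34) and brain transcriptome (6.29) overlapped in their ranges.

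Abcc4 (chr14:118482692-118706219, minus strand) had 4.36, 3.39 and 3.74 RPKM in brain EC and 5.8, 5.95 and 5.8 RPKM in kidney EC, which do not overlap. The log2 fold change of -0.57 (SE 0.09, adjusted p = 3.64e-04) passed the threshold narrowly. It lost the call when brain EC replicate 2 or 3 or any single kidney EC replicate was left out (-0.57 to -0.48, adjusted p = 0.0011 to 0.002). Across groups Abcc4 was a kidney transcript: kidney transcriptome (6.13 RPKM) overlapped kidney EC, and kidney translatome (4.51) overlapped brain EC. The brain transcriptome, brain translatome and Emx1-lineage had means of 0.824, 0.604 and 0.301 RPKM. Within brain, Abcc4 was thus low in all groups but the endothelial one.

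Abcc5 (chr16:20331303-20426394, minus strand), which exports cyclic nucleotides and heme, had the highest RPKM of the 7 members in the brain transcriptome, at 42.9, 36 and 39. Brain EC had 8.58, 9.7 and 8.77 RPKM and kidney EC had 7.05, 7.58 and 7.4 RPKM. The log2 fold change between them was 0.36 (SE 0.07, adjusted p = 0.00119), just short of the threshold. DESeq2 (0.36, adjusted p = 5.7e-05) and the single fit of all 21 samples (0.48, adjusted p = 1.2e-06) called it higher in brain EC.

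For Abcc5 the deposited counts and RPKM did not give the same answer. The 2 scales differ in how libraries are scaled and in the length by which the RPKM divides the reads. This length, which follows from the reads, the RPKM and the reads on mRNA rows of a sample, ranged from 2768 to 6074 bases between samples for Abcc5, whereas it varied by 0.159% to 0.184% for the 5 members with 1 accession and by 4.39% for Abcc4, which has 3. The Abcc5 row joins 2 RefSeq accessions, NM_013790 and NM_176839. They correspond to GENCODE transcripts of 5811 bases in 30 exons (chr16:20331303-20426394) and of 1136 bases in 7 exons (chr16:20400761-20426354), both on the minus strand. The implied length was 6065 to 6074 bases in brain EC and 5964 to 5984 in kidney EC, with hardly any spread. It was 2768 to 2960 in the brain translatome, 3289 to 3606 in the Emx1-lineage and 4195 to 4655 in the brain transcriptome. The 2 kidney organ groups lay between 4760 and 5751. Brain organ samples thus had the shortest lengths and endothelial samples the longest, without overlap between these sets.

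**Figure D2:**
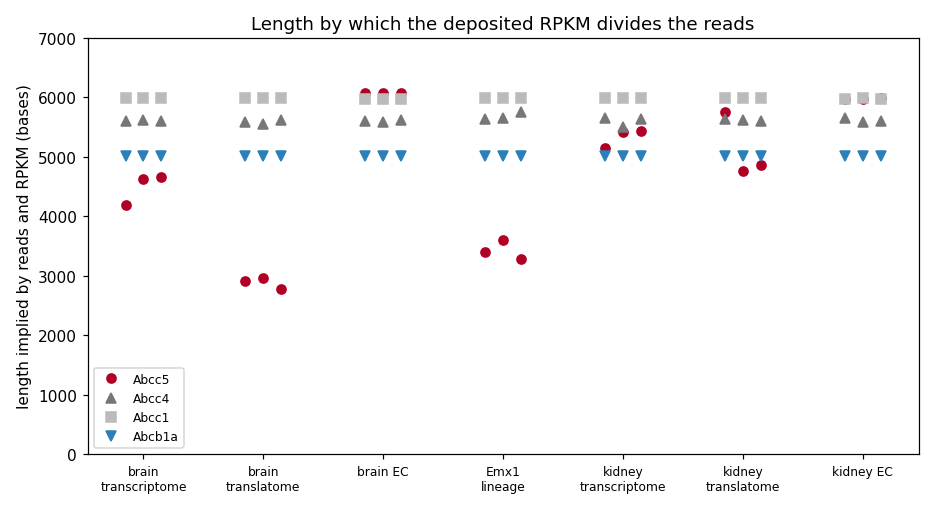
Length in bases by which the deposited RPKM divides the read count, for Abcc5 and 3 other members in the 21 samples, with a point for each sample. Abcb1a, Abcc1 and Abcc4 keep their length in all groups, whereas Abcc5 falls to 2768 to 2960 bases in the brain translatome and stays at 5964 to 6074 in the endothelial groups.

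Because of this, Abcc5 was higher in brain EC than in the brain translatome by counts (log2 fold change 0.74, SE 0.08, adjusted p = 1.94e-06) and lower by RPKM (9.02 ± 0.597 against 14.0 ± 0.896 RPKM, SD, n = 3; limma on log2(RPKM + 0.1), -0.62, adjusted p = 0.00016). As reads per 1000000 mRNA reads, the 3 brain EC samples had 52.1, 58.8 and 53.2 and the brain translatome samples 43.2, 38.6 and 38.6. The ranges did not overlap on either scale but stood in opposite order. Whether a change in the use of the short and long models accompanied this was not tested, since the tables hold 1 row for both.

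Each endothelial translatome was then set against the translatome of its own organ, to ask which pumps were enriched in endothelium. In brain, 6 of the 7 members were enriched and none was depleted, where 24.8% of 19103 transcripts were higher and 21.4% lower. Abcb1a was enriched 22.7-fold (log2 fold change 4.51, SE 0.11, adjusted p = 1.65e-12), Abcg2 12.3-fold (3.61, SE 0.08, adjusted p = 7.92e-13) and Abca1 10.8-fold (3.44, SE 0.08, adjusted p = 7.97e-13). Abcb1b (8.73-fold) and Abcc4 (7.81-fold) followed, and Abcc5 was enriched 1.67-fold by counts alone. The Abcb1b value rests on 2 to 11 reads per brain translatome sample, and without brain translatome replicate 1 it was no longer called (log2 fold change 2.65, adjusted p = 0.0014), while without replicate 3 it was 4.30 (adjusted p = 2e-06), against 3.13 in all 6 samples. Abcc1 stood apart, with a log2 fold change of -0.35 (95% confidence interval -0.58 to -0.11, adjusted p = 0.0129) that was not called. Without brain EC replicate 2, in which Abcc1 was highest, it was called lower (-0.48, adjusted p = 3.6e-04).

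In kidney, 5 members were enriched in the endothelial translatome and none was depleted, where 16.7% of 18940 transcripts were higher and 15.0% lower. The enrichment was 6.94-fold for Abcb1b (log2 fold change 2.80, SE 0.46, adjusted p = 3.51e-04), 2.7-fold for Abcg2, 2.26-fold for Abca1, 1.66-fold for Abcc4 and 1.63-fold for Abcc1. Kidney translatome replicates had 1, 9 and 8 reads of Abcb1b, and its call was lost without kidney translatome replicate 3 (adjusted p = 0.0021) or kidney EC replicate 3 (adjusted p = 0.0011). On log2(RPKM + 0.1), limma called 2 of the 5, Abcg2 and Abca1. It gave 0.37 for Abcc4 (adjusted p = 0.0096) and 0.34 for Abcc1 (adjusted p = 0.0042), against 0.73 and 0.70 in edgeR. The size of these enrichments thus depended on the scale. Abcb1a, at 8 to 43 reads per sample, had a log2 fold change of 1.27 (95% confidence interval 0.56 to 1.97, adjusted p = 0.00559), and Abcc5 one of 0.27 (adjusted p = 0.00903). The single fit of 21 samples called Abcb1a enriched (1.25, adjusted p = 1.9e-04). By RPKM, Abcc5 stood the other way, at 7.05, 7.58 and 7.4 in kidney EC against 8.55, 10 and 8.84 in the kidney translatome, a difference that limma on log2(RPKM + 0.1) did not call (-0.31, adjusted p = 0.012).

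**Figure D3:**
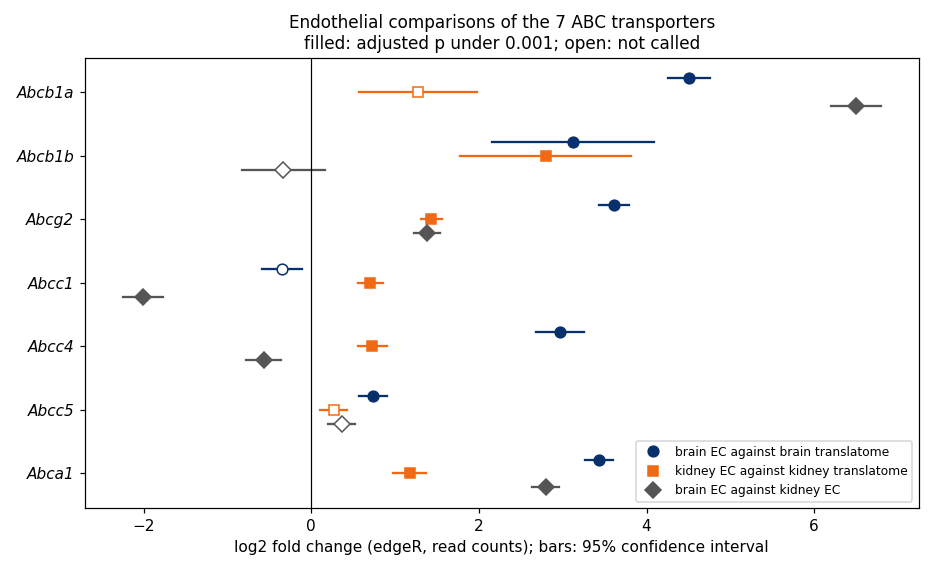
Log2 fold changes of read counts (points) with 95% confidence intervals (bars) for the 7 members in brain EC against brain translatome, kidney EC against kidney translatome and brain EC against kidney EC. Filled points were called; Abcb1a reaches 6.50 between the endothelial groups, and Abcc1 stands on opposite sides of 0 in the 2 organs.

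Endothelial enrichment itself was compared between the organs in 1 fit of 12 samples. It was larger in brain for 5 members, by log2 differences of 3.26 for Abcb1a (SE 0.31, adjusted p = 2.46e-07), 2.29 for Abca1 (SE 0.11, adjusted p = 8.31e-11), 2.26 for Abcc4 (SE 0.16, adjusted p = 5.08e-09), 2.21 for Abcg2 (SE 0.09, adjusted p = 1.28e-11) and 0.50 for Abcc5 (SE 0.10, adjusted p = 9.4e-04). For Abcc1 it was smaller, by -1.03 (SE 0.13, adjusted p = 6.97e-06). Abcb1b had a difference of 0.35 (95% confidence interval -1.27 to 1.96, adjusted p = 0.805), too wide an interval to place it. Of 19764 transcripts, 16.5% had a larger and 8.60% a smaller enrichment in brain, so that 65.7% of the calls were positive, against 55.5% with DESeq2, and the median of all transcripts was 0.15. The 10 endothelial markers were all called in the same direction, with a median of 1.5. Abcb1a, Abca1, Abcc4 and Abcg2 lay above this median, and Abcc5, Abcb1b and Abcc1 below it. The Abcc4 difference comes with a brain translatome at 0.604 RPKM and a kidney translatome at 4.51 RPKM, while Abcc4 itself was lower in brain EC than in kidney EC. The Abcc5 call was lost with relative log expression size factors (0.40, adjusted p = 0.0044) and in every fit that left out 1 replicate, other than those without brain translatome replicate 1 or kidney translatome replicate 3, and it reversed on log2(RPKM + 0.1) with limma (-0.32, adjusted p = 0.031).

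Between the whole-organ translatomes, Abcb1a (log2 fold change 3.35, SE 0.23, adjusted p = 1.05e-08) and Abca1 (0.63, SE 0.09, adjusted p = 1.85e-05) were higher in brain, and Abcc4 (-2.71, SE 0.13, adjusted p = 2.27e-10), Abcc1 (-0.86, SE 0.08, adjusted p = 1.92e-07) and Abcg2 (-0.71, SE 0.07, adjusted p = 6.67e-07) were higher in kidney. Of 19241 transcripts, 27.2% were higher in brain and 26.2% lower, against which the 2 higher and 3 lower members stand. Abcg2 thus had its higher organ level in kidney and its higher endothelial level in brain. The endothelial markers were lower in the brain translatome than in the kidney translatome for 8 of 10, with a summed level of 189 to 211 against 423 to 452 RPKM. Abca1 lost its call without brain translatome replicate 1 (0.62, adjusted p = 0.0016).

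The Emx1-lineage was compared with the brain translatome as a brain lineage driven by a non-endothelial Cre. No member was called higher and 4 were called lower, where 9.20% of 19006 transcripts were higher and 12.8% lower. The log2 fold change was -3.18 for Abcb1a (SE 0.18, adjusted p = 3.02e-09), -1.22 for Abca1 (SE 0.06, adjusted p = 1.03e-09), -0.91 for Abcc4 (SE 0.15, adjusted p = 1.54e-04) and -0.71 for Abcg2 (SE 0.07, adjusted p = 7.81e-07). Abcc4 was no longer called without brain translatome replicate 1 (-0.93, adjusted p = 0.0014). All 10 endothelial markers were lower in the Emx1-lineage, with a median of -3.83, as were all 8 pericyte and all 10 microglia and macrophage markers, with medians of -2.63 and -4.32. Abcg2 still had 7.01 ± 0.0992 RPKM (SD, n = 3) against 11.9 ± 0.895 in the brain translatome. This comparison and that of brain EC with the brain translatome share their reference samples. Abcc5 (0.30, adjusted p = 0.00171), Abcc1 (0.17, adjusted p = 0.0449) and Abcb1b (0.73, adjusted p = 0.384) were not called.

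Translatome and transcriptome of the same tissue were compared to see how far the pumps' share of ribosome-bound RNA departed from their share of total RNA. In brain, Abcc5 (log2 fold change -2.10, SE 0.06, adjusted p = 1.01e-11), Abcc1 (-1.03, SE 0.07, adjusted p = 2.75e-08) and Abca1 (-0.85, SE 0.06, adjusted p = 1.62e-08) were depleted from the translatome and no member was enriched, where 18.6% of 19446 transcripts were higher and 18.5% lower. By RPKM, where the implied length differs, Abcc5 had 39.3 ± 3.42 in the transcriptome and 14.0 ± 0.896 in the translatome (SD, n = 3). In kidney, Abcc5 (-1.17, SE 0.05, adjusted p = 6.97e-08) and Abcc1 (-0.65, SE 0.05, adjusted p = 1.32e-06) were depleted and none was enriched, where 14.9% of 19336 transcripts were higher and 15.8% lower. Samples of the same number share a tissue sample here. With the replicate block, Abcg2 was called higher in the brain translatome (0.36, adjusted p = 1.7e-05, against 0.36 and 0.00169 without it), and Abcc4 was called lower in the kidney translatome (-0.44, adjusted p = 1.5e-14, against -0.43 and 0.00104). Abcb1a and Abcb1b were called in neither organ.

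Of the 46 other ABC genes, 45 were tested between brain EC and kidney EC, and 9 were higher and 9 lower, with a median log2 fold change of 0.04. These counts are close to the shares of all transcripts, 20.1% higher and 16.9% lower, against which the subfamily counts also stand. By subfamily, 4 of 14 Abca genes were higher and 1 lower, 1 of 10 Abcb genes (Tap1 and Tap2 included) was higher and 3 lower, and 2 of 8 Abcc genes (Cftr included) were higher and 4 lower. The 4 Abcd genes and 3 Abcf genes were not called, Abce1 was lower, and 2 of 5 Abcg genes were higher. Among those with at least 1 RPKM in an endothelial group, Abcg1, which exports sterols alongside Abca1, had 24.4 ± 1.42 RPKM in brain EC and 6.72 ± 0.39 in kidney EC (log2 fold change 1.90, SE 0.07, adjusted p = 5.3e-09). It was enriched in the endothelium of both organs, by 2.89 in brain and 2.75 in kidney. Abcg4 (3.54) and Abca9 (3.42) were higher in brain EC at 2.62 and 2.54 RPKM, although Abcg4 was lower in brain EC than in the brain translatome (-1.12, adjusted p = 1.58e-07). Abcc3, a conjugate pump best known from liver and gut, was lower in brain EC (0.199 against 2.8 RPKM, -3.77, adjusted p = 2.15e-08).

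Abcc9, the sulphonylurea receptor subunit of a potassium channel, was lower in brain EC as well (1.05 ± 0.0577 against 11.4 ± 1.3 RPKM, SD, n = 3; log2 fold change -3.39, adjusted p = 4.25e-10). Against its organ it was depleted in brain EC (-1.48) and enriched in kidney EC (1.11). It is at the same time 1 of the 8 pericyte markers, which together summed to 64.8 to 79.3 RPKM in brain EC and 112 to 128 in kidney EC, with 5 of 8 lower in brain EC. Cspg4 made up most of the sum in kidney EC (73.9 RPKM, against 10.3 in brain EC), and the 6 markers other than Abcc9 and Cspg4 summed to 54.5 to 66.9 RPKM in brain EC and 32.0 to 40.5 in kidney EC, the opposite order. These 2 were left out after their values were seen, and Vtn alone had 33.4 RPKM in brain EC against 0.0487 in kidney EC. Against the kidney translatome, Abcc9 and Cspg4 were higher in kidney EC and 5 of the 8 markers lower, with a median log2 fold change of -1.31. The part of pericyte RNA in the Abcc9 result was not tested. Abcb9 (1.54) was higher and Abce1 (-0.86) lower in brain EC.

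**Figure D4:**
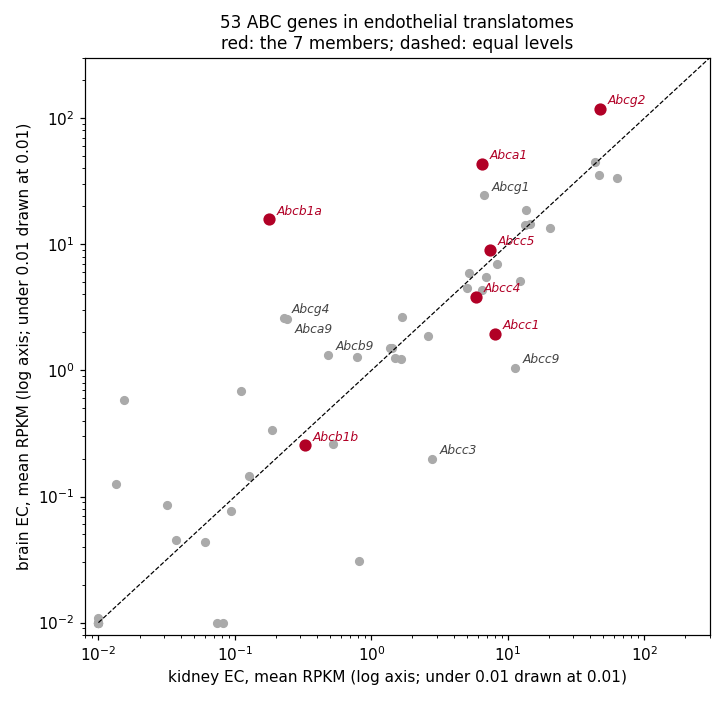
Mean RPKM in brain EC (vertical) against kidney EC (horizontal) for the 53 ABC genes, on log axes, with the 7 members in red, other genes in grey, and those of the named genes with the largest fold changes labelled. Abcb1a lies farthest above the line of equal levels among genes over 1 RPKM in either group, and Abcc3 and Abcc9 lie far below it.

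Further lists connected with these pumps were examined in the same comparison. The counts of each list are to be read against the 20.1% of all transcripts that were higher and the 16.9% that were lower. Of 12 organic anion and cation carriers of the SLC families, which share many substrates with the ABC pumps, 7 were higher in brain EC and 1 lower, with a median log2 fold change of 1.10. Slco1c1, the thyroxine carrier of brain capillaries, had 100, 80.9 and 99.5 RPKM in brain EC and 0.0923, 0.0385 and 0.0613 RPKM in kidney EC (log2 fold change 10.48, SE 0.18, adjusted p = 2.57e-11). Slc22a8 (7.23, adjusted p = 6.24e-10), Slc22a6 (5.37, adjusted p = 2.89e-08) and Slco2b1 (3.73, adjusted p = 1.34e-10) followed, and all 4 were enriched in brain EC against the brain translatome.

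Among 13 partners of sterol efflux, 5 were higher in brain EC and 5 lower, with a median of 0.06. Pltp, the phospholipid transfer protein, had 223 ± 5.91 RPKM in brain EC and 3.02 ± 0.0832 in kidney EC (log2 fold change 6.25, SE 0.08, adjusted p = 6.22e-12). Apoe, an acceptor of Abca1 lipids that microglia and progenitors also make, had 230, 121 and 135 RPKM in brain EC against 9.71, 6.18 and 6.36 in kidney EC (4.48, adjusted p = 1.32e-07). Lrp1 was higher in brain EC as well (1.74, adjusted p = 2.76e-06).

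Of 16 nuclear receptors and stress regulators, a list that holds known regulators of ABC genes, 4 were higher and 4 lower, with a median of 0.00. Ppard had 94.6 ± 4.33 RPKM in brain EC and 14.6 ± 0.545 in kidney EC (2.74, adjusted p = 2.27e-10), and Nr1h3, a liver X receptor that induces Abca1, had 1.6 and 0.597 RPKM (1.48, adjusted p = 6.48e-05). Against the brain translatome, however, Nr1h3 was not called in brain EC (0.32, adjusted p = 0.0936). Pparg (0.0239 against 1.48 RPKM, -5.95, adjusted p = 1.56e-07, on 1 to 4 reads per brain EC sample) and Ahr, the aryl hydrocarbon receptor (3.7 against 11.5 RPKM, -1.59, adjusted p = 4.6e-08), were lower in brain EC.

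To describe which transcripts follow the members across the 7 groups, the root mean square difference of log2(mean RPKM + 0.1), centred on its mean over groups, was taken against 11837 transcripts that reached 5 RPKM in some group. Closest to Abcb1a were Ccbp2, an atypical chemokine receptor (0.22), Slc38a3, a glutamine carrier (0.37), and Ctsw (0.44), with 17.0, 160 and 26.6 RPKM in brain EC and 0.306, 5.66 and 0.114 in kidney EC. Abcb1a itself had means of 0.0843 to 0.179 RPKM in the kidney groups and the Emx1-lineage. These are near the added 0.1, which compresses its pattern. Abcg2 was nearest to Slco2a1, the prostaglandin carrier (0.17), Nmi (0.23) and Plekhg1 (0.29). Nearest to Abca1 were Sparcl1 (0.25), Slc7a1, a carrier of cationic amino acids (0.34), and Gatm (0.42).

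The Abcc genes had closer matches. Abcc4 followed Kank1 (0.09), Lpp (0.18) and Mov10 (0.19), Abcc1 followed Vars (0.16), C330027C09Rik (0.18) and Prkrir (0.21), and Abcc5 by RPKM followed Zgpat (0.16), Lenep (0.17) and Prpf40b (0.17). Abcb1b lay next to Arsa (0.14), Dgkz (0.18) and Lrrfip1 (0.18), but its levels are near the pseudocount, which compresses its pattern. These are distances over 7 group means with no test.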

How the data were processed

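TRAP and total RNA libraries (TruSeq RNA v2, which does not mark strand) were prepared and sequenced by the authors, who aligned the reads to GRCm38 (mm10) by RUM and obtained gene values for the UCSC refGene annotation from the rpkmforgenes program. Read length and the treatment of reads that fit several genes are not given in the sources used here. The deposited files hold unnormalized read counts and, as made by the authors, RPKM values, in 23827 rows for each of 21 samples. The members and gene lists were chosen with earlier results of these data known.

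The test was edgeR's quasi-likelihood F test (version 4.0.16 under R 4.3.3, TMM factors) over transcripts with at least 1 count, in 7 pairwise comparisons of 3 samples with 3 and 1 interaction over 12 samples, and p-values were adjusted over all transcripts by the Benjamini-Hochberg method. Calls were made at an adjusted p under 0.001. Intervals are at the 95% level and, like each SE, cover the spread between samples. Depths were 21760652 to 79231692 reads, so that transcripts with few reads carry wide intervals. Replicates of a group differed beyond counting noise, and the paper calls them biological replicates. Translatome and transcriptome of the same number come from the same tissue sample, and their deviations from the group means correlated (0.43 to 0.50 in brain, 0.52 to 0.63 in kidney); same-numbered brain EC and kidney EC samples also did (0.20 to 0.32). Alternatives were relative log expression size factors, DESeq2 1.42.0, at least 10 counts in 3 samples, 1 fit of all 21 samples, the replicate block, limma 3.58.1 on log2(RPKM + 0.1) and log2(RPKM + 1), an adjusted p under 0.05, and each replicate left out in turn.

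Named genes were all members; up to 8 other ABC genes called between brain EC and kidney EC with a mean of at least 1 RPKM in either, by size of fold change; up to 4 of each further list by the same rule; and the 3 transcripts most like each member. Of these, 2 are not reported here. Promoter sequences are from RefSeq (GRCm38.p6), transcripts and gene positions from GENCODE on GRCm38, read and aligned with Biopython 1.88.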

Additional observations from a re-analysis of the deposited data

Results flagged for a closer look

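The endothelial enrichment of 6 members differed between brain and kidney by the test of the interaction (edgeR, 12 samples). On the log2 scale, brain minus kidney, the differences were 3.26 for Abcb1a, 2.29 for Abca1, 2.26 for Abcc4, 2.21 for Abcg2, 0.50 for Abcc5 and -1.03 for Abcc1. The Abcc5 call was narrow (adjusted p = 9.4e-04) and was lost in most alternative fits. Among these was the fit with at least 10 counts in 3 samples (0.48, adjusted p = 0.0013). With limma on log2(RPKM + 0.1) and log2(RPKM + 1) its sign changed. The 10 endothelial markers had a median difference of 1.5, and all transcripts one of 0.15. With 3 samples in each group, single samples were not tested as outliers.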

How the results depend on the processing

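Of 768 alternative values of member fold changes, 702 kept their direction and their side of the threshold, 34 lost a call, 13 gained one and 19 changed sign. In 6 of the 19 the main or the alternative value was called, all Abcc5 with limma on log2(RPKM + 0.1) and log2(RPKM + 1): -0.62 and -0.58 for brain EC against brain translatome, -0.32 and -0.30 for the difference in enrichment, and 0.61 and 0.56 for brain against kidney translatome. The implied length of the Abcc5 row moved with these groups. The other 13, called in neither fit, were Abcc5 and Abcb1b. Among them were Abcc5 in kidney EC against the kidney translatome on RPKM (-0.31 and -0.28), Abcb1b in the brain translatome against the transcriptome without brain transcriptome replicate 3 (0.35, against -0.62) and the Abcb1b difference in enrichment (down to -0.13). On both RPKM scales, 1 member was called lower in brain EC than in kidney EC (Abcc1; Abcc4 was lost) and 1 lower in brain EC than in the brain translatome, and 2 and 3 were called higher in kidney EC than in the kidney translatome. Leaving out single replicates gave 1 to 2 members lower in brain EC than in kidney EC, 0 to 1 lower in brain EC than in the brain translatome, 1 to 2 higher in the brain than in the kidney translatome, and 1110 to 1444 transcripts higher in the Emx1-lineage than in the brain translatome (1749 in all 6 samples; 1110 without Emx1-lineage replicate 2 and 1138 without replicate 1). The single fit of 21 samples called 1 member, Abcc1, lower in brain EC than in the brain translatome, and 1, Abcg2, higher in the brain translatome than in the brain transcriptome, and also called Abcc5 in brain EC against kidney EC, Abcb1a in kidney EC and Abcc4 in the kidney translatome against the transcriptome (-0.43, adjusted p = 0.00047). DESeq2 called 2735 transcripts with a smaller enrichment in brain (1700 in edgeR), 1 member (Abcc5) higher in the Emx1-lineage, 1 (Abcg2) higher in the brain translatome than in the transcriptome, Abcc5 in brain EC against kidney EC, and Abcc4 lower in the kidney translatome than in the transcriptome (-0.43, adjusted p = 2.1e-05). At least 10 counts in 3 samples gave 1164 transcripts higher in the Emx1-lineage, with fewer transcripts tested. An adjusted p under 0.05 gave 1 member lower in brain EC than in the brain translatome, 2 higher in the Emx1-lineage, and 1 higher and 5 lower in the brain translatome than in the transcriptome. The share of all transcripts under 0.05 was not computed, so these counts have no background to be read against. With the replicate block, 1 member, Abcg2, was higher in the brain translatome than in the transcriptome; Abcc4 was gained in kidney, where 4636 transcripts were higher and 4860 lower (2880 and 3049 without it); Abcc5 lost its call for the difference in enrichment (0.49, adjusted p = 0.0015); and 1116 transcripts were higher in the Emx1-lineage, whose numbers share nothing with those of the brain translatome. The block changed no other member's call. The cause of the other changes was not tested. Depth limits Abcb1b, at 1 to 69 reads per sample, and Abcb1a in the kidney groups and the Emx1-lineage, at 8 to 43 reads per sample.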
